A study of Mus musculus with 14 samples.

Results

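Cells given the siRNA Si2AK were compared directly with cells given the siRNA Si1AK, using 3 Si2AK and 4 Si1AK arrays, which are 7 of the 14 samples of the series. The members were chosen by their transfection label alone, and no control array entered the test. The cells were mSCC-38, a mouse line from a skin squamous cell carcinoma induced by the chemicals DMBA and TPA. The siRNAs are distinct but were made against the same transcript, AK144841, so the comparison asks how far cells given siRNAs with the same intended target differed. Cells of both groups were transfected with the lipid reagent RNAimax and harvested at 72 h, as were 3 samples given the control siRNA SiC. The other 4 samples were not transfected (NT), and SiC and NT levels are given only to place the siRNA levels. All groups thus share the line, its growth medium and, NT aside, the reagent. The results describe 1 cell line. Whether replicates came from separate cultures is not in the labels, and the p-values describe only the spread among these samples, part or all of which may be technical. AK144841 itself was not analysed here, and its knockdown by either siRNA is therefore unchecked.

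As background, an siRNA guides Argonaute proteins to a matching transcript, and its seed can also lower transcripts that match it only in part. The integrated stress response is a shared route of cells to amino acid shortage, viral RNA, unfolded protein and other stresses, in which kinases that phosphorylate eIF2 alpha raise translation of the transcription factor ATF4, which then raises genes of amino acid supply. NF-kB is a family of transcription factors that raise cytokines and their own inhibitors, and keratinocytes, the cells from which squamous carcinoma arises, release such cytokines and EGF receptor ligands when wounded or stressed.

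Each level below is the log2 processed signal of a probe minus the 75th percentile of its array, so 0 is the brightness of that percentile, and every difference is Si2AK minus Si1AK on this log2 scale. Words such as rose and fell thus compare the siRNAs with each other and not with a control. Slide 1 held Si2AK replicates 1 and 2 and Si1AK replicates 1 and 2, and slide 2 held Si2AK replicate 3 and Si1AK replicates 3 and 4. Si2AK replicate 2 stood apart. Its median processed signal was 107.5, against 27.6 to 37.6 on the other 6 arrays, and 84.9% of its spots were well above background, against 54.9% to 60.1%. It lay at -123 on the first principal component of the 7 arrays, which held 62.9% of the variance, and the others lay between -0.82 and 40.3. Counts are therefore also given without this array. Of 141 called genes that are named here or by the rule for names, 130 were called without it too. SiC replicate 1 stood apart in the same way, with 90.5% of its spots well above background. No spot was saturated.

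Of 21128 genes tested, 2983 were called at a limma adjusted p below 0.05, which is 14.1% of them. Of these, 1618 were higher in Si2AK (7.66%) and 1365 were lower (6.46%). Of the calls, 54.2% were thus higher, but the split leaned the other way under other scalings, with 46.0% higher after quantile normalization, 43.5% after normexp background correction and quantile normalization, 44.3% in the authors' deposited table and 48.9% with the 75th percentile taken over probes well above background on all 7 arrays. Without Si2AK replicate 2 there were 3014 calls, 1435 higher (47.6%) and 1579 lower, and 2327 of the 2983 genes were among them. Leaving out single other arrays gave fewer calls, and without Si1AK replicate 1 there were 1401. Without Si1AK replicate 3 there were 1544, against 1729 without Si1AK replicate 2, 1860 without Si2AK replicate 1 and 1879 without Si2AK replicate 3. Without Si1AK replicate 4 there were 2014, of which 1070 were higher. With slide as a block, 3423 genes were called. Slide 1 alone (2 arrays against 2) gave 0 calls in limma, with 3410 genes at an unadjusted p below 0.05, and slide 2 alone (1 against 2) gave 1 call, with 4334 at that unadjusted p. The median difference over all genes was 0.09 (0.04 without Si2AK replicate 2), and with quantile normalization it was -0.04.

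**Figure D1:**
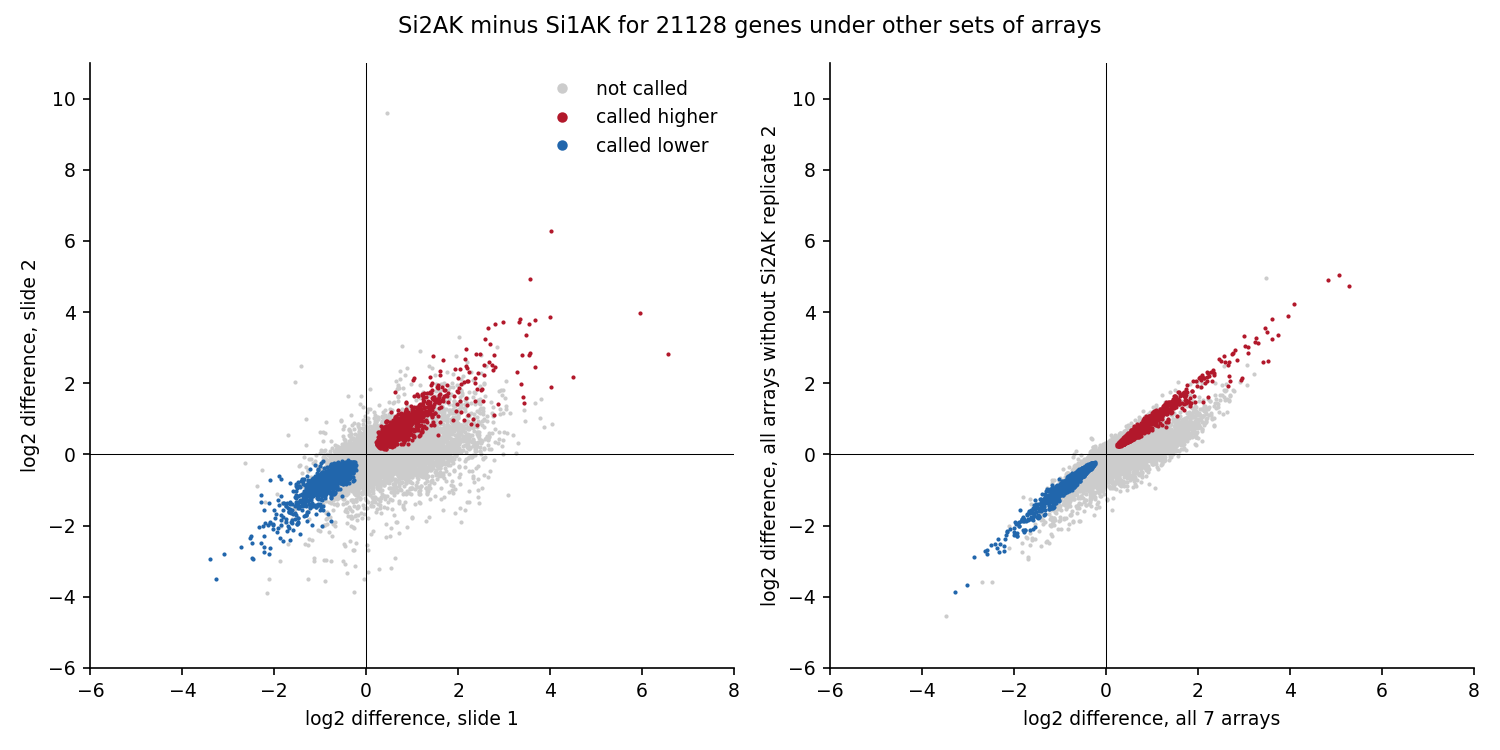
Each point is 1 gene. The left panel sets the log2 difference Si2AK minus Si1AK on slide 2 (y axis) against that on slide 1 (x axis), and the right panel sets the difference without Si2AK replicate 2 (y axis) against that over all 7 arrays (x axis); red genes were called higher in Si2AK, blue genes lower and grey genes not called. All called genes have siRNA groups that do not overlap, which by itself puts them at the lower left and upper right of both panels, so the panels show the sizes of their differences and not a check of their sign. The lone grey point near the top is Rdh9.

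Most called differences were modest, with a median size of 0.59. At least 2-fold differences were found for 252 genes higher and 267 lower in Si2AK, and at least 4-fold ones for 56 higher and 21 lower. All 2983 called genes had Si2AK and Si1AK arrays that did not overlap, but 29.7% of all genes tested had that too. Among 2897 probed lincRNA regions, each strand counted apart, 78 were higher and 73 lower, together 5.21%.

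Among the 15 largest rises in Si2AK were those of the hormone genes Fgf21 and Adm2, the chemokine gene Cxcl2, the desmosomal cadherin gene Dsg3 and 3 clade B serpins. Fgf21, a hormone that starved or stressed cells release, had levels of -1.94, -2.21 and -2.63 on Si2AK replicates 1 to 3, against -7.93, -8.14, -6.82 and -6.41 on Si1AK replicates 1 to 4. It was well above background on all 3 Si2AK arrays and on none of the 4 Si1AK arrays, so its rise is a bound: at least 12.7-fold higher in Si2AK, with measured means of -2.26 in Si2AK and -7.33 in Si1AK (limma adjusted p = 0.00215). The Fgf21 probe maps to chromosome 7, 52869305 to 52869364 of mm9. Tac1, the precursor of the neuropeptide substance P, was likewise at least 8.47-fold higher in Si2AK, with measured means of -2.84 in Si2AK and -6.93 in Si1AK (limma adjusted p = 0.00661). Cds1, an enzyme of phospholipid synthesis, was at least 2.93-fold higher (means -4.37 in Si2AK and -7.62 in Si1AK, limma adjusted p = 0.00188), and Fut1, a fucosyltransferase of blood group antigens, was at least 2.76-fold higher (means -4.46 in Si2AK and -8.19 in Si1AK, limma adjusted p = 0.00211). Bounds of this kind are smaller than fitted differences because they assume a signal at the edge of detection in Si1AK. Every gene with a bound, here and below, passed the probe filter only through the brighter siRNA. So did Dsg3, Macc1, Sybu and Gsta3, given below, for which only some arrays of the dimmer siRNA were well above background. The p-values of all these genes use signals of the dimmer siRNA that fell short of the background mark. They add no support to the bound or, for these named genes, to the size of the fitted difference.

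Cxcl2, a chemokine that draws neutrophils, had levels of 1.81, 2.18 and 2.19 on Si2AK replicates 1 to 3, against -1.22, -1.46, -1.96 and -1.11 on Si1AK replicates 1 to 4. Every Si2AK array stood above every Si1AK array, and the difference was 3.5 ± 0.222 (SE; limma adjusted p = 0.000961). It was 3.33 on slide 1, 3.72 on slide 2, 3.49 with slide as a block and 3.44 without Si2AK replicate 2. Dsg3, a cadherin of epidermal desmosomes, rose by 3.97 ± 0.21 (SE; limma adjusted p = 0.00072), though only 2 of 4 Si1AK arrays measured it well above background. The same holds for Macc1, a regulator of the receptor MET in human cancer, which rose by 3.31 ± 0.466 (SE; limma adjusted p = 0.00765). Car6, a secreted carbonic anhydrase, rose by 3.46 ± 0.424 (SE; limma adjusted p = 0.00535), and Adm2, a peptide hormone of the calcitonin family, rose by 3.09 ± 0.364 (SE; limma adjusted p = 0.0047). Bhlha15, a transcription factor of secretory cells, rose by 3.02 ± 0.259 (SE; limma adjusted p = 0.00201).

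Clade B serpins, inhibitors of proteases inside cells, also stood among the largest rises. Serpinb1a, an inhibitor of neutrophil proteases, had levels of 3.96, 3.78 and 4.06 on Si2AK replicates 1 to 3, against 0.97, 1.22, 1.06 and 1.5 on Si1AK replicates 1 to 4. All 3 Si2AK arrays were close together and more than a log2 unit above the highest Si1AK array, and the difference was 2.75 ± 0.146 (SE; limma adjusted p = 0.00072). Serpinb9e rose by 2.81 ± 0.156 (SE; limma adjusted p = 0.00072). Serpinb1c was at least 3.75-fold higher (means -4.01 in Si2AK and -6.71 in Si1AK, limma adjusted p = 0.0308), and lost its call without any array except Si2AK replicate 1 and Si2AK replicate 2 (2.43 to 2.95). Its Si2AK levels were -4.91, -2.71 and -4.41 on replicates 1 to 3, so replicate 2 raises the mean and the bound. Without Si2AK replicate 2 the fitted difference was 2.05, against 2.7 over all 7 arrays. How far the probes of these near-identical serpin genes bind each other's transcripts is uncertain. Slc22a3, an organic cation transporter, was at least 2.77-fold higher (means -4.44 in Si2AK and -7.45 in Si1AK, limma adjusted p = 0.0376), and Sybu, an adaptor of axonal transport measured on 1 of 4 Si1AK arrays, rose by 2.76 ± 0.514 (SE; limma adjusted p = 0.0177). Both lost the call without single arrays: Slc22a3 without any array except Si1AK replicate 1 and Si2AK replicate 2 (2.53 to 3.18), and Sybu without any array except Si1AK replicate 1, Si1AK replicate 4 and Si2AK replicate 2 (2.66 to 2.78). The other 12 of these 15 genes kept their call without each array in turn.

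Among the 15 largest falls in Si2AK were those of 3 carboxylesterases, a water channel and a matrix protein. Aqp1, a water channel, had levels of -3.58, -3.34 and -3.59 on Si2AK replicates 1 to 3, against -0.80, -0.67, -0.81 and -1.17 on Si1AK replicates 1 to 4. The siRNA groups were far apart, and the controls lay between them at -1.84 in SiC and -1.90 in NT. Aqp1 fell by 2.64 ± 0.139 (SE; limma adjusted p = 0.00072), and the difference was -2.72 on slide 1, -2.60 on slide 2, -2.68 with slide as a block and -2.72 without Si2AK replicate 2. Mmrn2, an extracellular matrix protein of vessels, had levels of -1.24, -0.93 and -1.18 on Si2AK replicates 1 to 3, against 1.35, 1.55, 1.20 and 1.14 on Si1AK replicates 1 to 4, and fell by 2.42 ± 0.13 (SE; limma adjusted p = 0.00072). Its controls too lay between the siRNAs, at 0.05 in SiC and -0.18 in NT.

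Of 5 tested genes of the carboxylesterase 2 family, which encode enzymes that split esters and lipids, 4 were called lower in Si2AK, a family counted after its values were seen. Ces2e had levels of 1.46, 1.32 and 1.11 on Si2AK replicates 1 to 3, against 3.79, 4.02, 3.41 and 3.41 on Si1AK replicates 1 to 4. No Si2AK array came within a log2 unit of any Si1AK array, and Ces2e fell by 2.36 ± 0.18 (SE; limma adjusted p = 0.00162). This probe maps to chromosome 8, 107458508 to 107458567 of mm9. The other kept probe of Ces2e gave a smaller difference, -1.36. Ces2c fell by 2.18 ± 0.138 (SE; limma adjusted p = 0.000961), and Ces2b was at least 1.36-fold lower (means -7.73 in Si2AK and -5.15 in Si1AK, limma adjusted p = 0.00338). Ces2g was called lower at -0.89, and Ces2f was not called, at -0.41. The members of this cluster are similar in sequence, so binding of a probe to several transcripts is uncertain here too. Mogat2, an enzyme that builds diacylglycerol, fell by 2.16 ± 0.132 (SE; limma adjusted p = 0.00091).

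Gsta3, a glutathione transferase, fell by 3.29 ± 0.453 (SE; limma adjusted p = 0.0071), with 2 of 3 Si2AK arrays well above background, and its difference without Si2AK replicate 2 was -3.88. The other kept probe of Gsta3 gave a smaller difference, -1.65. Ctla2a, an inhibitor of cysteine proteases, fell by 2.59 ± 0.233 (SE; limma adjusted p = 0.00213). Spn, the leukocyte sialoprotein CD43, fell by 2.36 ± 0.218 (SE; limma adjusted p = 0.0022), Spns3, a transporter of the spinster family, fell by 2.33 ± 0.347 (SE; limma adjusted p = 0.00891), and Cavin2, a caveola protein, fell by 2.23 ± 0.277 (SE; limma adjusted p = 0.00547). For Spn the other kept probe gave -1.62. Nfatc2, a calcium-regulated transcription factor, was at least 2.47-fold lower (means -6.79 in Si2AK and -4.30 in Si1AK, limma adjusted p = 0.000221), and Boc, a coreceptor of hedgehog ligands, was at least 2.87-fold lower (means -6.96 in Si2AK and -4.08 in Si1AK, limma adjusted p = 0.00181). Robo4, a receptor of endothelial cells, was at least 4.76-fold lower (means -6.34 in Si2AK and -3.32 in Si1AK, limma adjusted p = 0.0253), and Mcpt8, a protease of basophils, fell by 2.23 ± 0.452 (SE; limma adjusted p = 0.0233). For Robo4, SiC averaged -6.08 and NT -6.17, near Si2AK and not well above background on any array. On Si2AK replicate 2 Robo4 was at -5.06, short of the background mark. The dimmest marked signal of that array was -5.15, so the Robo4 bound is approximate. Robo4 lost its call without any array except Si1AK replicate 4 and Si2AK replicate 2 (-3.20 to -2.70) and Mcpt8 without any array except Si1AK replicate 4, Si2AK replicate 2 and Si2AK replicate 3 (-2.32 to -2.12).

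**Figure D2:**
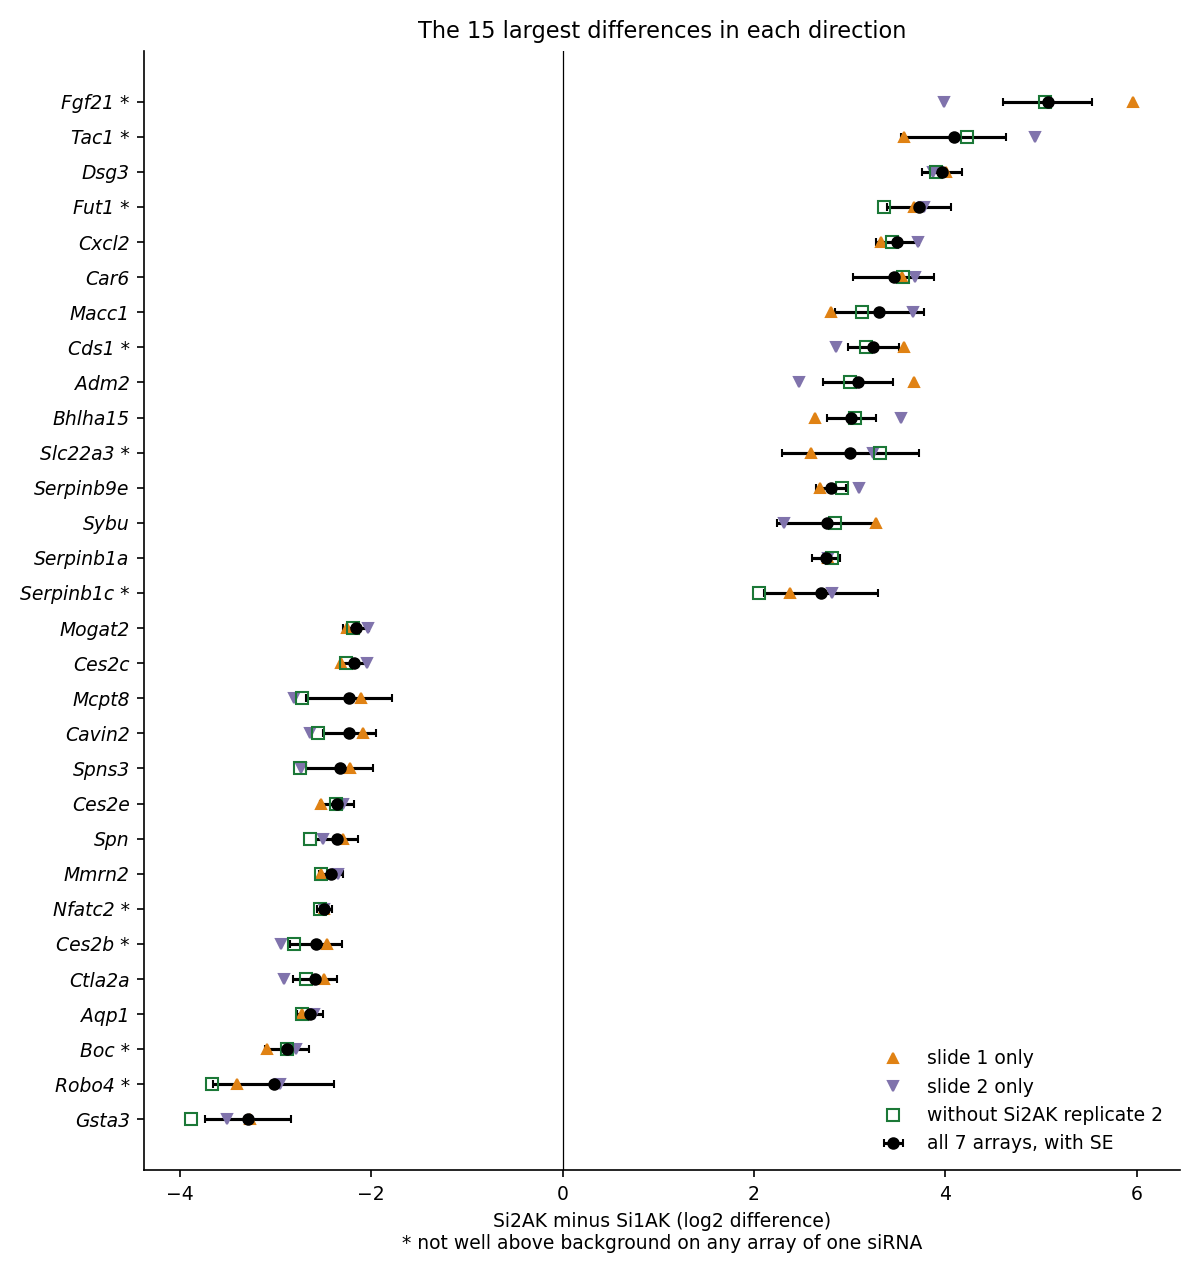
Log2 differences Si2AK minus Si1AK (x axis) of the 15 genes with the largest called rise and the 15 with the largest called fall (y axis). Black points are the fit over all 7 arrays with the SE of limma as bars, triangles are the single slides and open squares the fit without Si2AK replicate 2; genes with an asterisk have only a bound, since 1 siRNA gave no array well above background. Of the genes plotted, Fgf21 has the largest fitted difference, and since these genes were chosen for groups that do not overlap, all markers of a gene had to lie on one side of 0.

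Genes of the integrated stress response were called in 1 direction only, higher in Si2AK. In this list, 17 of 25 tested members were called higher and 0 lower (16 higher and 0 lower without Si2AK replicate 2), against 7.66% higher and 6.46% lower of all genes. The median difference was 0.73 (0.69 on slide 1, 0.76 on slide 2, 0.73 with slide as a block and 0.77 without Si2AK replicate 2). Atf3, a stress-induced transcription factor, had levels of 2.27, 2.25 and 2.99 on Si2AK replicates 1 to 3, against -0.41, -0.39, 0.08 and 0.69 on Si1AK replicates 1 to 4. Si2AK was above Si1AK on every array, and the difference was 2.51 ± 0.325 (SE; limma adjusted p = 0.00613). Trib3, a pseudokinase that ATF4 raises, had levels of 5.29, 5.75 and 5.76 on Si2AK replicates 1 to 3, against 2.89, 3.05, 3.21 and 3.87 on Si1AK replicates 1 to 4, and rose by 2.35 ± 0.255 (SE; limma adjusted p = 0.00379). Ddit3, the transcription factor CHOP that acts downstream of ATF4, rose by 1.96 ± 0.234 (SE; limma adjusted p = 0.00492). Without Si2AK replicate 2 these differences were 2.64, 2.28 and 2.05.

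Atf4 itself, which is mainly set by translation and is given here although its value was seen before it was chosen, had levels of 7.76, 8.03 and 8.09 on Si2AK replicates 1 to 3, against 7.34, 7.28, 7.44 and 7.70 on Si1AK replicates 1 to 4. The ranges were near each other, and the difference was 0.52 ± 0.133 (SE; limma adjusted p = 0.0479). Its call was lost without any array except Si1AK replicate 4 (0.45 to 0.62). Of the eIF2 alpha kinases, Eif2ak3 (PERK, the kinase of the endoplasmic reticulum) was called higher, at 0.97, while the differences of Eif2ak1, Eif2ak4 and Eif2ak2 (PKR, the kinase that binds double-stranded RNA) were 0.14, -0.24 and -0.86 and were not called. Gdf15, a stress hormone, and Ddit4, an inhibitor of mTOR, were not called either, at 0.28 and 0.05.

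The promoters of this list were searched for the element to which ATF4 binds with C/EBP partners, written TGATGNAA, on both strands of the 250 bases before each gene's start (RefSeq, GRCm38.p6). It was present in 5 of 22 promoters of the list (22.7%), in 3.73% of those of all genes called higher, in 2.17% of those called lower, and in 2.56% of those of all genes tested. Over all 32851 windows the share was 3.45%. The list was made of known genes of this response, so a high share can follow from that choice alone. Among its members called higher the element was present in 4 of 16 promoters, close to the share of the whole list. No window held this element overlapping the NF-kB element described further on. The matches are given for Fgf21 and Atf3, the members with the largest differences. Asns, the asparagine synthetase gene that amino acid shortage raises, is added from the amino acid synthesis list below and is not among the 5. The windows lie at chr7:45615491-45615740 on the minus strand for Fgf21, chr1:191183334-191183583 on the minus strand for Atf3 and chr6:7693210-7693459 on the minus strand for Asns. Capitals mark the match, and a match is a run of letters and no proof of binding.
Fgf21: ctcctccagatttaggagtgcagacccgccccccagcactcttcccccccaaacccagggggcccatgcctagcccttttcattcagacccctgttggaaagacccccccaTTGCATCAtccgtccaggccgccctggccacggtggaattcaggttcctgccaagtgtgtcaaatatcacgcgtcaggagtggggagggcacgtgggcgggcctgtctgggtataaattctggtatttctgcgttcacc
Atf3: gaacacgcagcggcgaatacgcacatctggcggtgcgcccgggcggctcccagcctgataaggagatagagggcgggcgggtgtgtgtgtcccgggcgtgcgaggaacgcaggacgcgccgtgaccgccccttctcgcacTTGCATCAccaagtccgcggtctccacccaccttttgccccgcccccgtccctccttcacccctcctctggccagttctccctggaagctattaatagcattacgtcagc
Asns: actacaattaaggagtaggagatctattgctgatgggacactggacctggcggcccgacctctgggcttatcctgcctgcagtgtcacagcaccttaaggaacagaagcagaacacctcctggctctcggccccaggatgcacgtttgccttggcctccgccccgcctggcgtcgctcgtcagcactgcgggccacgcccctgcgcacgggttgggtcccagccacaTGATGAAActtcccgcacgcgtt

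Genes that supply amino acids were called higher in Si2AK in each of the lists below. Of the enzymes of serine, one-carbon and amino acid synthesis, 9 of 22 tested members were called higher and 1 lower (9 higher and 0 lower without Si2AK replicate 2), with a median difference of 0.22 (0.19 on slide 1, 0.30 on slide 2, 0.23 with slide as a block and 0.26 without Si2AK replicate 2). Gpt2, the mitochondrial alanine transaminase, had levels of 2.25, 2.13 and 2.06 on Si2AK replicates 1 to 3, against -0.66, -0.48, -0.53 and -0.10 on Si1AK replicates 1 to 4. The Si2AK arrays were all above 2 and the Si1AK arrays all below 0, and Gpt2 rose by 2.59 ± 0.143 (SE; limma adjusted p = 0.00072). Aldh1l2, a mitochondrial folate enzyme, rose by 2.04 ± 0.305 (SE; limma adjusted p = 0.00889). Cth, which makes cysteine, rose by 1.48 ± 0.0694 (SE; limma adjusted p = 0.000643), and Psph, the last enzyme of serine synthesis, rose by 1.17 ± 0.102 (SE; limma adjusted p = 0.00208). Asns was called higher at 0.84, and the member called lower was Glul, the glutamine synthetase gene, at -0.40. Phgdh, the first enzyme of serine synthesis, was not called (0.14).

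Of the amino acid transporters, 9 of 13 tested members were called higher and 0 lower (9 higher and 0 lower without Si2AK replicate 2), and the median was 0.63 (0.54 on slide 1, 0.56 on slide 2, 0.71 with slide as a block and 0.62 without Si2AK replicate 2). Slc6a9, a glycine transporter, had levels of 4.35, 4.38 and 4.54 on Si2AK replicates 1 to 3, against 2.17, 2.30, 2.29 and 2.70 on Si1AK replicates 1 to 4. These groups did not overlap, and the difference was 2.06 ± 0.138 (SE; limma adjusted p = 0.00121). Slc7a3, a transporter of cationic amino acids, rose by 2.22 ± 0.186 (SE; limma adjusted p = 0.00192). The light and heavy chains of the large neutral amino acid transporter, Slc7a5 and Slc3a2, rose by 0.87 ± 0.0702 (SE; limma adjusted p = 0.00181) and 0.79 ± 0.0881 (SE; limma adjusted p = 0.00414). The cystine transporter gene Slc7a11 was not called (0.63).

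Among the cytosolic aminoacyl-tRNA synthetases, which load amino acids on tRNAs, 11 of 20 tested members were called higher and 0 lower (9 higher and 0 lower without Si2AK replicate 2). Their rises were smaller, with a median difference of 0.40 (0.41 on slide 1, 0.36 on slide 2, 0.41 with slide as a block and 0.39 without Si2AK replicate 2). Aars, the alanyl-tRNA synthetase, had levels of 5.45, 5.59 and 5.66 on Si2AK replicates 1 to 3, against 4.64, 4.73, 4.90 and 4.88 on Si1AK replicates 1 to 4, and rose by 0.78 ± 0.0975 (SE; limma adjusted p = 0.00559). Nars rose by 0.67, Sars by 0.62 and Lars by 0.56, and each kept its call without each array in turn. Calls in the cytosolic aminoacyl-tRNA synthetases list numbered 6 without Si1AK replicate 1 or Si1AK replicate 3 and 7 without Si1AK replicate 2 or Si2AK replicate 1.

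In the list of ER chaperones and ER-associated degradation, 9 of 21 tested members were called higher and 0 lower (10 higher and 0 lower without Si2AK replicate 2), with a median of 0.35 (0.29 on slide 1, 0.35 on slide 2, 0.36 with slide as a block and 0.27 without Si2AK replicate 2). Herpud1, which helps to degrade misfolded ER protein, had levels of 4.30, 4.22 and 4.28 on Si2AK replicates 1 to 3, against 2.72, 2.88, 2.52 and 2.92 on Si1AK replicates 1 to 4. The Si2AK arrays were tightly grouped above the Si1AK arrays, and the difference was 1.51 ± 0.111 (SE; limma adjusted p = 0.00155). Edem1 and Syvn1, a lectin and a ubiquitin ligase of the same route, rose by 1.11 ± 0.113 (SE; limma adjusted p = 0.00306) and 0.80 ± 0.12 (SE; limma adjusted p = 0.0089). Hspa5, the chaperone BiP, rose by 0.69 ± 0.123 (SE; limma adjusted p = 0.016), but lost its call without Si1AK replicate 1 (0.64) or Si1AK replicate 3 (0.67).

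**Figure D3:**
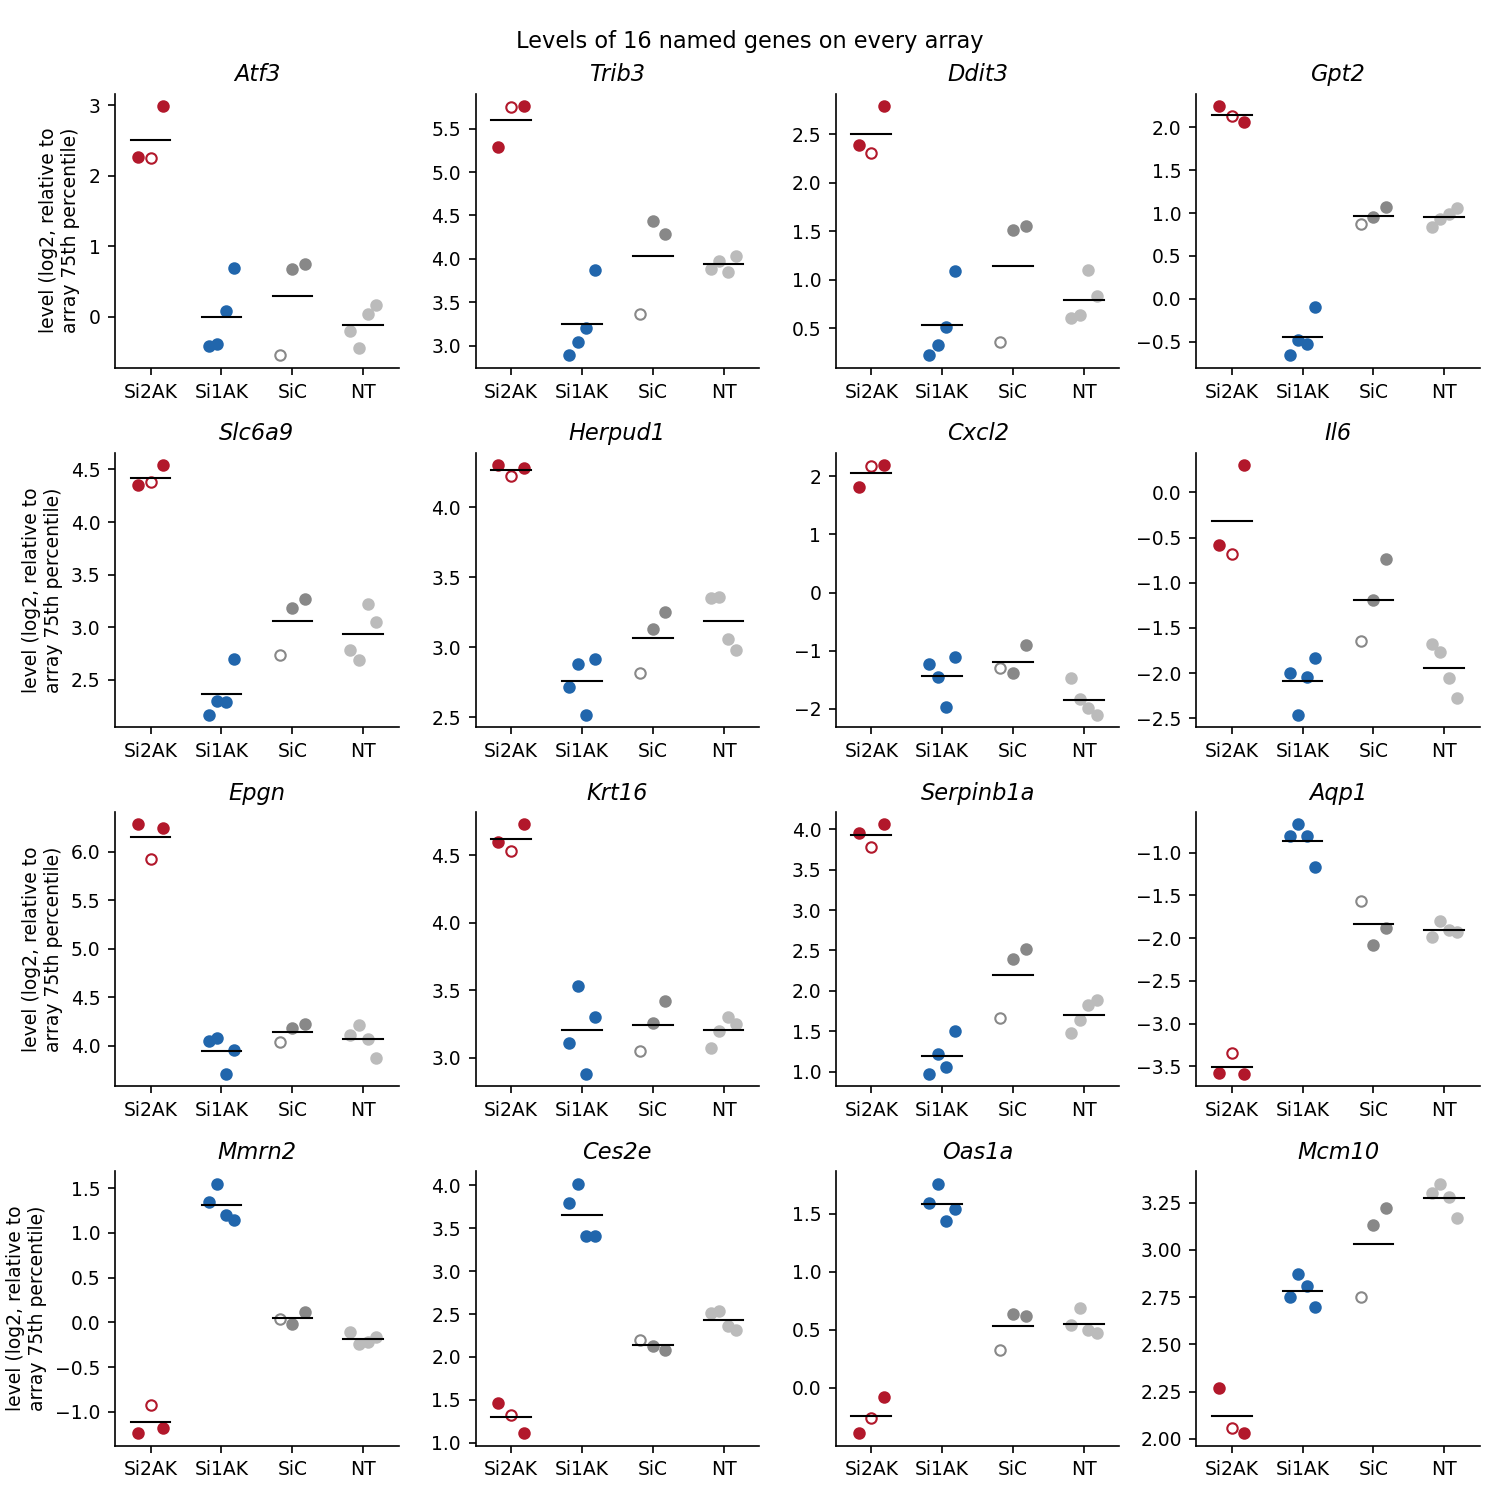
Levels (y axes, log2 relative to the 75th percentile of the array) of 16 named genes in the Si2AK, Si1AK, SiC and NT groups (x axes). Each point is 1 array, open points are Si2AK replicate 2 and SiC replicate 1, and lines are group means; the y axes differ between panels. In each panel all 3 Si2AK points lie on one side of all 4 Si1AK points, above for Atf3 through Serpinb1a and below for Aqp1, Mmrn2, Ces2e, Oas1a and Mcm10.

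NF-kB genes were mostly called higher in Si2AK. Of the subunits, feedback inhibitors and cytokines, 21 of 33 tested members were called higher and 0 lower (17 higher and 0 lower without Si2AK replicate 2), and the median difference was 0.83 (0.69 on slide 1, 1.0 on slide 2, 0.87 with slide as a block and 0.76 without Si2AK replicate 2). It was the highest median of the 34 lists over all 7 arrays, but without Si2AK replicate 2 that of the integrated stress response was higher, at 0.77. Besides Cxcl2, its neighbour Cxcl1, also a neutrophil chemokine, had levels of 5.84, 5.98 and 6.45 on Si2AK replicates 1 to 3, against 3.82, 3.69, 3.43 and 4.09 on Si1AK replicates 1 to 4, and rose by 2.33 ± 0.204 (SE; limma adjusted p = 0.00208). Il6, a cytokine of acute inflammation, had levels of -0.58, -0.68 and 0.30 on Si2AK replicates 1 to 3, against -2.0, -2.46, -2.04 and -1.83 on Si1AK replicates 1 to 4. Si2AK replicate 3 was the highest array, the 2 others were lower but still above all Si1AK arrays, and Il6 rose by 1.76 ± 0.273 (SE; limma adjusted p = 0.00989). Without Si2AK replicate 2 the difference was 1.94. Ptgs2, the inducible cyclooxygenase, rose by 2.09 ± 0.175 (SE; limma adjusted p = 0.00192). Feedback members were called higher as well, with the NF-kB inhibitor Nfkbia at 0.95, Nfkbiz at 0.83 and Bcl3 at 0.76, and so were the subunits Relb (0.93), Nfkb2 (0.59) and Nfkb1 (0.41). Rela, the main activating subunit, and the inhibitors Tnfaip3 and Nfkbie were not called, at 0.36, 0.48 and 0.12.

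An NF-kB element, written as GGG, then 2 bases of any kind, then TTTCC, and searched on both strands, was present in the 250 upstream bases of 9 of 24 genes of this list with a promoter (37.5%). The share was 2.27% for all genes called higher, 1.84% for those called lower and 1.79% for all genes tested, and 1.41% over all windows. This list too was made of known genes of its route, so a high share can follow from that choice alone. Among its members called higher the share was 40.0% (6 of 15), close to that of the whole list. The windows of Cxcl1, Cxcl2 and Il6, shown because these cytokines rose most among the genes with the element, lie at chr5:90890995-90891244 on the plus strand for Cxcl1, chr5:90903649-90903898 on the plus strand for Cxcl2 and chr5:30012864-30013113 on the plus strand for Il6. Capitals mark the element as read on either strand.
Cxcl1: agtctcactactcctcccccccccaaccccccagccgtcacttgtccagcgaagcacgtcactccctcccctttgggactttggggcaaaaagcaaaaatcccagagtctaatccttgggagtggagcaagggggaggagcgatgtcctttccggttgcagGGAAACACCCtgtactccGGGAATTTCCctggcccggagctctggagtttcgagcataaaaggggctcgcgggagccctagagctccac
Cxcl2: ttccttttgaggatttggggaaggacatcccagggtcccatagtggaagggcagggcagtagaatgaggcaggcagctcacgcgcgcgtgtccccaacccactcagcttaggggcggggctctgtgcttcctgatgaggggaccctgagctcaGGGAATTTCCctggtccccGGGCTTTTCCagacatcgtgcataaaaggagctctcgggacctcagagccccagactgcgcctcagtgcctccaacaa
Il6: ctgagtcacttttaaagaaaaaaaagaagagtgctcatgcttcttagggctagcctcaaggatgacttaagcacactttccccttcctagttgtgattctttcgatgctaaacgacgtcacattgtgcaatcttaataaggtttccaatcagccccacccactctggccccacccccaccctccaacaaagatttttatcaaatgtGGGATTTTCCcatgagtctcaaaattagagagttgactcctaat

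Several ligands of the EGF receptor rose in Si2AK. In the list of these ligands and their receptors, 5 of 11 tested members were called higher and 0 lower (5 higher and 0 lower without Si2AK replicate 2), with a median of 0.47 (0.58 on slide 1, 0.36 on slide 2, 0.46 with slide as a block and 0.35 without Si2AK replicate 2). Epgn, epigen, had levels of 6.28, 5.92 and 6.24 on Si2AK replicates 1 to 3, against 4.05, 4.08, 3.71 and 3.96 on Si1AK replicates 1 to 4. The lowest Si2AK array was well clear of the highest Si1AK array, and the difference was 2.20 ± 0.134 (SE; limma adjusted p = 0.00091). The Epgn probe maps to chromosome 5, 91464119 to 91464178 of mm9. Ereg, epiregulin, rose by 1.90 ± 0.189 (SE; limma adjusted p = 0.00278), and Hbegf, heparin-binding EGF, rose by 1.21 ± 0.141 (SE; limma adjusted p = 0.00451). Areg, amphiregulin, rose by 1.43 ± 0.257 (SE; limma adjusted p = 0.0158), and lost its call without Si2AK replicate 1 (1.41). On slide 1 Ereg differed by 1.61 and on slide 2 by 2.36.

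Immediate early genes and feedback genes of the MAP kinases, which such ligands raise, were more often called higher than lower. Here 11 of 31 tested members were called higher and 3 lower (9 higher and 3 lower without Si2AK replicate 2), and the median was 0.27 (0.21 on slide 1, 0.36 on slide 2, 0.24 with slide as a block and 0.26 without Si2AK replicate 2). Dusp8, a phosphatase of stress-activated kinases, rose by 2.12 ± 0.178 (SE; limma adjusted p = 0.00192). Fos, a subunit of AP-1, rose by 1.39 ± 0.181 (SE; limma adjusted p = 0.00613), and Ier3, an early response gene, rose by 1.19 ± 0.133 (SE; limma adjusted p = 0.00415). Egr1, an early transcription factor, rose by 0.89, with its call lost without any array except Si1AK replicate 3, Si1AK replicate 4 and Si2AK replicate 2 (0.83 to 0.95). Those called lower were Dusp7, Fosb and Myc, at -0.64, -0.34 and -0.31. Calls in the immediate early and MAPK feedback list numbered 7 without Si1AK replicate 1 or Si2AK replicate 3, 8 without Si1AK replicate 3 or Si2AK replicate 1 and 9 without Si1AK replicate 2 or Si1AK replicate 4.

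The called genes of basal and wounded keratinocytes were all higher in Si2AK. In that list, 11 of 22 tested members were called higher and 0 lower (8 higher and 0 lower without Si2AK replicate 2), and the median was 0.42 (0.41 on slide 1, 0.40 on slide 2, 0.38 with slide as a block and 0.36 without Si2AK replicate 2). Krt16, a keratin of wounded epidermis, had levels of 4.60, 4.53 and 4.73 on Si2AK replicates 1 to 3, against 3.11, 3.53, 2.88 and 3.30 on Si1AK replicates 1 to 4. No Si1AK array reached the Si2AK range, and Krt16 rose by 1.42 ± 0.159 (SE; limma adjusted p = 0.00414). Krt6b and Krt6a, its partners, rose by 1.32 ± 0.168 (SE; limma adjusted p = 0.00579) and 1.21 ± 0.0835 (SE; limma adjusted p = 0.00132). Col17a1, a hemidesmosome collagen, rose by 0.73 ± 0.096 (SE; limma adjusted p = 0.00625). Dsg3 and Dsp, a desmosome plaque gene, were the called members of the desmosome and junction list, where 2 of 16 tested members were called higher and 0 lower (3 higher and 0 lower without Si2AK replicate 2), with a median of 0.28 (0.25 on slide 1, 0.33 on slide 2, 0.26 with slide as a block and 0.24 without Si2AK replicate 2). The called share of that list, 12.5%, was below the 14.1% of all genes. Dsp rose by 0.66 ± 0.124 (SE; limma adjusted p = 0.0185) and lost its call without any array except Si1AK replicate 2, Si1AK replicate 4 and Si2AK replicate 2 (0.57 to 0.63). Calls in the basal and stressed keratinocyte list numbered 6 without Si1AK replicate 1 or Si1AK replicate 3.

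The cornified envelope and terminal differentiation genes, which build the outer skin layer, were split. Although the median was 0.64 (0.43 on slide 1, 0.54 on slide 2, 0.55 with slide as a block and 0.37 without Si2AK replicate 2), only 17.1% of the list was called, against 14.1% of all genes, and 4 of 35 tested members were called higher and 2 lower (4 higher and 3 lower without Si2AK replicate 2). Sprr2h, a small proline-rich envelope protein, rose by 2.02 ± 0.323 (SE; limma adjusted p = 0.0109), and belongs to a family of near-identical genes. Casp14, the caspase of cornification, had levels of -0.79, -0.92 and -1.08 on Si2AK replicates 1 to 3, against 1.20, 1.27, 1.01 and 0.62 on Si1AK replicates 1 to 4. It was lower on every Si2AK array, and fell by 1.96 ± 0.171 (SE; limma adjusted p = 0.00208). The controls were near Si2AK, with Casp14 at -0.92 to -0.84 in SiC and -0.76 to -0.43 in NT. Lce3c rose by 1.43 and Sprr1b by 1.35, but Lce3c lost its call without any 1 of the 7 arrays (1.18 to 1.61) and Sprr1b without Si1AK replicate 1 (1.25) or Si1AK replicate 3 (1.29). Among stefins, cystatins and clade B serpins, 5 of 15 tested members were called higher and 1 lower (4 higher and 1 lower without Si2AK replicate 2), with a median of 0.31 (0.24 on slide 1, 0.45 on slide 2, 0.33 with slide as a block and 0.38 without Si2AK replicate 2). After Serpinb1a, the largest were Serpinb9, which inhibits granzyme B, at 1.07 ± 0.118 (SE; limma adjusted p = 0.00395) and Serpinb5, maspin, at 0.94 ± 0.0973 (SE; limma adjusted p = 0.00326). Cst6, a cystatin of the epidermis, was the member called lower, at -0.51, with the call lost without any array except Si2AK replicate 2 (-0.56 to -0.39). Calls in the stefins, cystatins and clade B serpins list numbered 3 without Si1AK replicate 1 or Si1AK replicate 2 or Si2AK replicate 3.

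**Figure D4:**
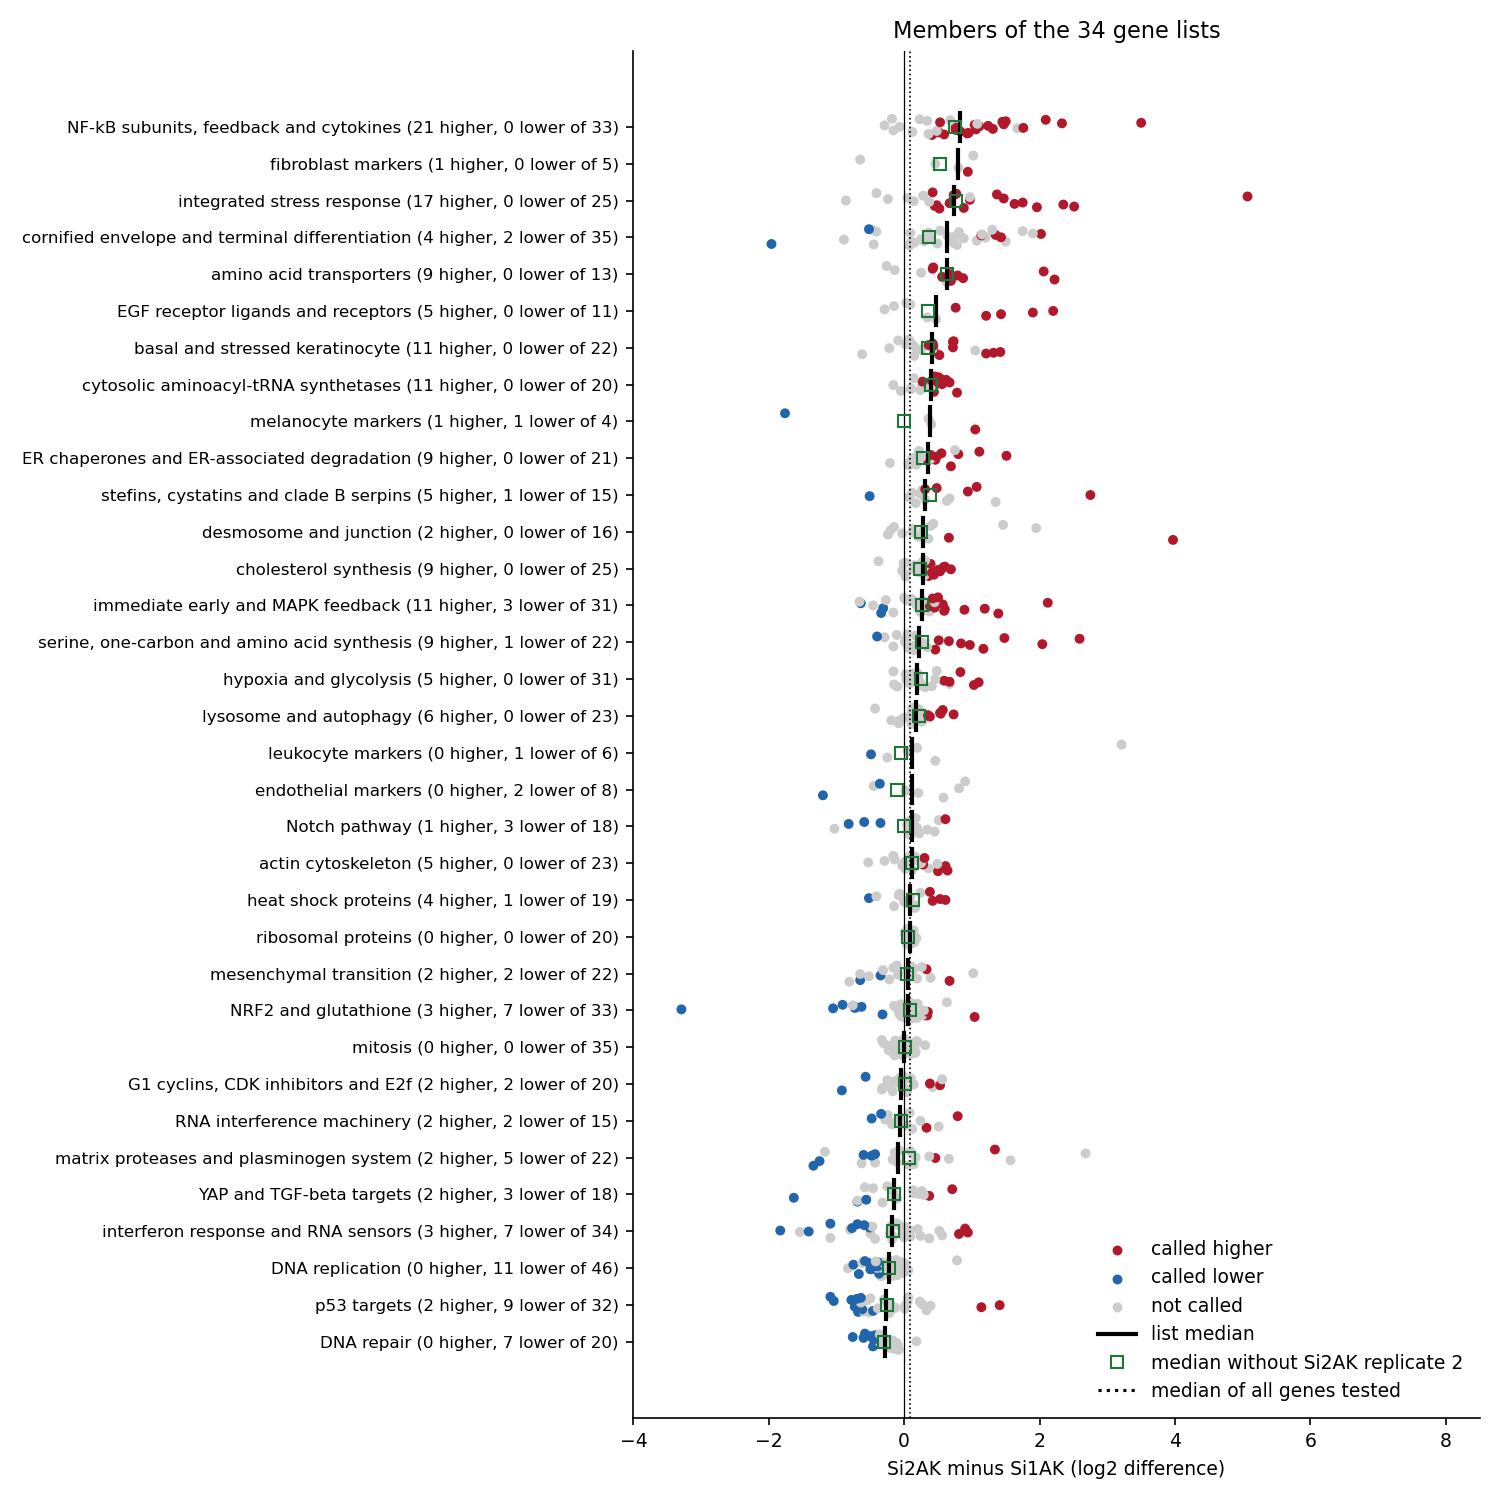
Each row is 1 of the 34 gene lists with its counts, and each point is the log2 difference Si2AK minus Si1AK (x axis) of 1 tested member, red where called higher, blue where called lower and grey where not called. Black bars are list medians, open squares the medians without Si2AK replicate 2, the dotted line the median of all genes tested at 0.09. Over all 7 arrays NF-kB genes have the highest median, at 0.83, and DNA repair genes the lowest, at -0.29.

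The called DNA replication and repair genes were all lower in Si2AK. Of the replication genes, 0 of 46 tested members were called higher and 11 lower (0 higher and 10 lower without Si2AK replicate 2), with a median of -0.22 (-0.15 on slide 1, -0.31 on slide 2, -0.20 with slide as a block and -0.22 without Si2AK replicate 2), and of the repair genes, 0 of 20 tested members were called higher and 7 lower (0 higher and 8 lower without Si2AK replicate 2), with a median of -0.29 (-0.26 on slide 1, -0.36 on slide 2, -0.30 with slide as a block and -0.30 without Si2AK replicate 2). Exo1, an exonuclease of DNA repair, had levels of 3.11, 2.97 and 2.86 on Si2AK replicates 1 to 3, against 3.55, 3.67, 3.51 and 3.58 on Si1AK replicates 1 to 4. No Si2AK array reached the Si1AK range, and Exo1 fell by 0.60 ± 0.0862 (SE; limma adjusted p = 0.00813). Msh6, a mismatch repair protein, fell by 0.50 (limma adjusted p = 0.00495). Mcm10, which starts replication forks, had levels of 2.27, 2.06 and 2.03 on Si2AK replicates 1 to 3, against 2.75, 2.87, 2.81 and 2.70 on Si1AK replicates 1 to 4. Again the groups did not overlap, and Mcm10 fell by 0.67 ± 0.0877 (SE; limma adjusted p = 0.0064). Dna2 and Tipin, a nuclease and a fork protection gene, fell by 0.75 and 0.58, and lost their call without Si1AK replicate 1 (-0.72) for Dna2 and Si1AK replicate 1 (-0.57) for Tipin. All 18 called genes of both lists had SiC and NT means above both siRNAs, also when SiC replicate 1 was left out. Calls in the DNA replication list numbered 4 without Si1AK replicate 3 or Si2AK replicate 3, 5 without Si1AK replicate 1 and 7 without Si1AK replicate 2 or Si1AK replicate 4 or Si2AK replicate 1. Calls in the DNA repair list numbered 4 without Si1AK replicate 2 or Si1AK replicate 3 or Si2AK replicate 1 or Si2AK replicate 3.

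Mitosis genes gave no call in limma. Of 35, 0 were called and 2 had an unadjusted p below 0.05, and the median was -0.007 (0.08 on slide 1, -0.12 on slide 2, -0.006 with slide as a block and 0.01 without Si2AK replicate 2). The largest absolute difference was that of Foxm1, a transcription factor of mitotic genes, at -0.33 ± 0.0878 (SE; limma adjusted p = 0.0558). Among G1 cyclins, CDK inhibitors and E2f genes, 2 of 20 tested members were called higher and 2 lower (2 higher and 4 lower without Si2AK replicate 2), with a median of -0.04 (-0.09 on slide 1, -0.02 on slide 2, -0.04 with slide as a block and 0.008 without Si2AK replicate 2). Among all genes 7.66% were called higher and 6.46% lower, so 2 calls each way among 20 genes give this list no direction. Ccnd3, cyclin D3, had levels of 3.98, 3.99 and 3.91 on Si2AK replicates 1 to 3, against 4.87, 4.96, 4.79 and 4.88 on Si1AK replicates 1 to 4, and fell by 0.92 ± 0.0694 (SE; limma adjusted p = 0.00156). E2f7, a repressor of E2F targets, was at -0.57, but its other probe gave 0.55, so its direction is uncertain. Calls in the G1 cyclins, CDK inhibitors and E2f list numbered 2 without Si1AK replicate 1 or Si1AK replicate 2 or Si1AK replicate 4.

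Targets of p53 were more often called lower than higher. Of these, 2 of 32 tested members were called higher and 9 lower (3 higher and 6 lower without Si2AK replicate 2), and the median was -0.27 (-0.36 on slide 1, -0.17 on slide 2, -0.29 with slide as a block and -0.26 without Si2AK replicate 2). Polk, a DNA polymerase that bypasses damage, fell by 1.04 ± 0.165 (SE; limma adjusted p = 0.0106), and Tap1, a peptide transporter that is also an interferon gene, fell by 1.09 ± 0.179 (SE; limma adjusted p = 0.0121). The exceptions were Plk3, a stress kinase, which rose by 1.41 ± 0.0665 (SE; limma adjusted p = 0.000643), and Gadd45a, a growth arrest gene that ATF4 can raise as well, which rose by 1.14 ± 0.113 (SE; limma adjusted p = 0.00282). Of the 9 p53 targets called lower, 4 had the SiC mean between the siRNA means and 5 below both, and NT gave 4 and 5. Without SiC replicate 1 the SiC counts were 6 and 3. Polk was at -0.44, -0.82 and -0.74 on Si2AK replicates 1 to 3, near SiC (-0.69 to -0.46) and NT (-0.90 to -0.60). Calls in the p53 targets list numbered 6 without Si1AK replicate 1 or Si1AK replicate 2 or Si2AK replicate 3 and 7 without Si1AK replicate 3.

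Interferon-stimulated genes and RNA sensors, which foreign RNA can raise, differed in both directions. Of 34 tested, 3 were called higher and 7 lower (3 higher and 13 lower without Si2AK replicate 2), with a median of -0.17 (-0.14 on slide 1, -0.20 on slide 2, -0.19 with slide as a block and -0.17 without Si2AK replicate 2). Oas1a, a sensor of double-stranded RNA, had levels of -0.39, -0.26 and -0.08 on Si2AK replicates 1 to 3, against 1.59, 1.76, 1.44 and 1.54 on Si1AK replicates 1 to 4. All Si2AK arrays were below 0 and all Si1AK arrays above 1, and Oas1a fell by 1.83 ± 0.112 (SE; limma adjusted p = 0.00091). Mx1, an antiviral GTPase, fell by 1.41 ± 0.123 (SE; limma adjusted p = 0.00208), while Isg15, a ubiquitin-like interferon product, rose by 0.94 ± 0.0888 (SE; limma adjusted p = 0.00231). For Oas1a the controls lay between the siRNAs, at 0.53 in SiC and 0.55 in NT. In the RNA interference machinery, 2 of 15 tested members were called higher and 2 lower (2 higher and 2 lower without Si2AK replicate 2), with a median of -0.06 (-0.04 on slide 1, -0.09 on slide 2, -0.07 with slide as a block and -0.05 without Si2AK replicate 2). The called share was 26.7%, against 14.1% of all genes. Tnrc6c, a partner of Argonaute, rose by 0.79 ± 0.0641 (SE; limma adjusted p = 0.00185). The rest were smaller: Tnrc6a and the translin gene Tsn were at -0.48 and -0.34, and Ago2 at 0.33, with its other probes at 0.59 and -0.02. Calls were lost without Si1AK replicate 1 (-0.47) or Si1AK replicate 4 (-0.46) or Si1AK replicate 3 (-0.50) for Tnrc6a, without any array except Si2AK replicate 2 (-0.36 to -0.31) for Tsn and without any array except Si1AK replicate 2, Si1AK replicate 4 and Si2AK replicate 2 (0.31 to 0.33) for Ago2. Calls in the RNA interference machinery list numbered 1 without Si1AK replicate 1 or Si1AK replicate 3 and 2 without Si1AK replicate 4 or Si2AK replicate 1 or Si2AK replicate 3.

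Genes of cell shape and matrix changed in both directions. Thbs1, a matrix protein that TGF-beta and YAP raise, had levels of 2.39, 2.23 and 2.51 on Si2AK replicates 1 to 3, against 3.81, 3.90, 4.18 and 4.13 on Si1AK replicates 1 to 4. It was lower on every Si2AK array, and fell by 1.63 ± 0.123 (SE; limma adjusted p = 0.00155). Ccn2 and Amotl2, YAP targets, fell by 0.69 and 0.56 (limma adjusted p = 0.00971 and 0.0127). In the YAP and TGF-beta list as a whole, 2 of 18 tested members were called higher and 3 lower (2 higher and 4 lower without Si2AK replicate 2), with a median of -0.15 (-0.18 on slide 1, -0.08 on slide 2, -0.18 with slide as a block and -0.16 without Si2AK replicate 2), with Pmepa1, a TGF-beta target, at 0.71 and its call lost without any array except Si1AK replicate 4 and Si2AK replicate 2 (0.60 to 0.75). Of the matrix proteases and the plasminogen system, 2 of 22 tested members were called higher and 5 lower (1 higher and 6 lower without Si2AK replicate 2). Their median changed sign between slides: -0.09 (-0.15 on slide 1, 0.14 on slide 2, -0.02 with slide as a block and 0.07 without Si2AK replicate 2). Mmp1a, a collagenase, fell by 1.34 ± 0.188 (SE; limma adjusted p = 0.00754), Mmp11, stromelysin 3, fell by 1.25 ± 0.103 (SE; limma adjusted p = 0.00188), and Plaur, the urokinase receptor, fell by 0.60 ± 0.091 (SE; limma adjusted p = 0.00922), while Adamts1, an aggrecanase, rose by 1.34 ± 0.162 (SE; limma adjusted p = 0.00514). Calls in the YAP and TGF-beta targets list numbered 3 without Si1AK replicate 1 or Si1AK replicate 2 or Si1AK replicate 3 or Si2AK replicate 1 or Si2AK replicate 3. Calls in the matrix proteases and plasminogen system list numbered 4 without Si1AK replicate 1.

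In the actin cytoskeleton list, 5 of 23 tested members were called higher and 0 lower (4 higher and 0 lower without Si2AK replicate 2), with a median of 0.11 (0.15 on slide 1, 0.11 on slide 2, 0.12 with slide as a block and 0.12 without Si2AK replicate 2). Its called share was 21.7%, against 14.1% of all genes. Acta2, smooth muscle actin, rose by 0.64 ± 0.0948 (SE; limma adjusted p = 0.00863). Cnn1 and Acta1, a calponin and skeletal actin, were at 0.61 and 0.50, with the call lost without Si2AK replicate 1 (0.58) or Si1AK replicate 1 (0.64) or Si1AK replicate 3 (0.60) for Cnn1 and Si1AK replicate 3 (0.50) for Acta1. Mesenchymal transition genes had 2 calls higher and 2 lower of 22 (2 higher and 1 lower without Si2AK replicate 2). That share of 18.2% was near the 14.1% of all genes. The called genes were Snai2 at 0.67, Zeb1 at -0.65, Cdh2 at -0.35 and Prrx1 at 0.33. None of these 4 kept its call without each array in turn: Snai2 lost it without any array except Si1AK replicate 4 and Si2AK replicate 2 (0.58 to 0.66), Zeb1 without any array except Si1AK replicate 4 and Si2AK replicate 1 (-0.66 to -0.55), Cdh2 without any array except Si1AK replicate 3 and Si2AK replicate 2 (-0.35 to -0.33) and Prrx1 without any array except Si2AK replicate 2 (0.29 to 0.36). Calls in the actin cytoskeleton list numbered 1 without Si1AK replicate 3, 2 without Si1AK replicate 1 or Si2AK replicate 1 and 3 without Si1AK replicate 2 or Si1AK replicate 4 or Si2AK replicate 3. Calls in the mesenchymal transition list numbered 0 without Si1AK replicate 1 or Si1AK replicate 2 and 1 without Si1AK replicate 3 or Si2AK replicate 1 or Si2AK replicate 3.

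Redox genes were also split. Of the NRF2 and glutathione genes, 3 of 33 tested members were called higher and 7 lower (3 higher and 7 lower without Si2AK replicate 2). Beside Gsta3, the glutathione transferases Gstm1 and Mgst1 fell by 1.05 and 0.91 (limma adjusted p = 0.00377 and 0.0124). Hmox1, heme oxygenase, had levels of 4.49, 4.49 and 4.52 on Si2AK replicates 1 to 3, against 3.42, 3.51, 3.41 and 3.49 on Si1AK replicates 1 to 4, and rose by 1.04 ± 0.0631 (SE; limma adjusted p = 0.00091). Heat shock genes gave 4 calls higher and 1 lower of 19 (2 higher and 0 lower without Si2AK replicate 2), and Dnajb2, a cochaperone, rose by 0.61 ± 0.068 (SE; limma adjusted p = 0.00404). The called share of the heat shock list was 26.3%, against 14.1% of all genes. Hspb1, the small heat shock protein, was at 0.53, with its call lost without Si2AK replicate 3 (0.52) or Si1AK replicate 1 (0.52). Calls in the NRF2 and glutathione list numbered 6 without Si1AK replicate 1 or Si1AK replicate 3 or Si2AK replicate 1 or Si2AK replicate 3. Calls in the heat shock proteins list numbered 1 without Si1AK replicate 1 and 2 without Si1AK replicate 2 or Si1AK replicate 3 or Si2AK replicate 1 or Si2AK replicate 3.

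Some genes of cholesterol synthesis, of hypoxia and glycolysis and of lysosomes and autophagy were called higher in Si2AK. Of the cholesterol synthesis genes, 9 of 25 tested members were called higher and 0 lower (5 higher and 0 lower without Si2AK replicate 2), with a median of 0.27 (0.40 on slide 1, 0.15 on slide 2, 0.26 with slide as a block and 0.23 without Si2AK replicate 2), and Hsd17b7, an enzyme of the late steps, rose by 0.58 ± 0.0917 (SE; limma adjusted p = 0.0108). Tm7sf2 and Ebp were at 0.69 and 0.60, with calls lost without any array except Si1AK replicate 1, Si1AK replicate 4 and Si2AK replicate 2 (0.67 to 0.72) and without any array except Si1AK replicate 4 (0.51 to 0.66). In the hypoxia and glycolysis list, 5 of 31 tested members were called higher and 0 lower (6 higher and 0 lower without Si2AK replicate 2), with a median of 0.19 (0.25 on slide 1, 0.25 on slide 2, 0.22 with slide as a block and 0.24 without Si2AK replicate 2). The called share of this list, 16.1%, was near the 14.1% of all genes. Vegfa, a growth factor of vessels that ATF4 can raise too, rose by 1.03 ± 0.175 (SE; limma adjusted p = 0.0131), and P4ha1, a collagen hydroxylase, rose by 0.83 ± 0.0931 (SE; limma adjusted p = 0.00414). Ndrg1, a stress-induced gene, was at 1.10 and lost its call without any array except Si1AK replicate 4 and Si2AK replicate 2 (0.95 to 1.16). Of the lysosome and autophagy genes, 6 of 23 tested members were called higher and 0 lower (5 higher and 0 lower without Si2AK replicate 2), with a median of 0.18 (0.18 on slide 1, 0.17 on slide 2, 0.17 with slide as a block and 0.22 without Si2AK replicate 2). Here the called share was 26.1%, against 14.1% of all genes. Atg7, Map1lc3a and Map1lc3b, which build autophagosomes, rose by 0.57, 0.54 and 0.53 (limma adjusted p = 0.0047, 0.00441 and 0.00797). Sqstm1, an autophagy receptor, was at 0.73 and lost its call without any array except Si2AK replicate 2 (0.56 to 0.83). Calls in the cholesterol synthesis list numbered 3 without Si1AK replicate 1 or Si1AK replicate 3 or Si2AK replicate 1 and 4 without Si1AK replicate 2 or Si2AK replicate 3. Calls in the hypoxia and glycolysis list numbered 3 without Si2AK replicate 1. Calls in the lysosome and autophagy list numbered 3 without Si1AK replicate 1 or Si1AK replicate 2 or Si1AK replicate 3 or Si1AK replicate 4 or Si2AK replicate 1 or Si2AK replicate 3.

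Notch pathway genes had 1 call higher and 3 lower of 18 (1 higher and 3 lower without Si2AK replicate 2). Their called share was 22.2%, against 14.1% of all genes. Nrarp, a feedback inhibitor of Notch, fell by 0.82 ± 0.137 (SE; limma adjusted p = 0.0125), and Rfng, a glycosyltransferase of the receptor, rose by 0.61 ± 0.0871 (SE; limma adjusted p = 0.00802). Of 20 ribosomal protein genes, 0 were called in limma and 0 had an unadjusted p below 0.05, and Rpl32 had the largest difference of these, at 0.18. The medians of the mesenchymal, NRF2, heat shock, Notch and ribosomal lists, at 0.06, 0.05, 0.09, 0.11 and 0.08, changed sign under other scalings and give no direction. Without Si2AK replicate 2 they were 0.04, 0.08, 0.12, 0.004 and 0.06. Calls in the Notch pathway list numbered 2 without Si1AK replicate 1 or Si1AK replicate 2 or Si1AK replicate 3.

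Levels in SiC and NT, which entered no test, were set beside those of both siRNAs. Among genes called higher, the SiC mean lay between the siRNA means for 51.9% and below both for 43.9%, and the NT mean for 60.1% and 35.6%. Among genes called lower, SiC lay between for 69.7% and above both for 19.6%, and NT for 62.4% and 26.1%. Over all genes tested the control lay between for 31.1% (SiC) and 37.9% (NT), and these positions are a description, with the same siRNA means used for the call. Without SiC replicate 1 the SiC mean lay between for 63.2% of genes called higher and 67.3% of those called lower. All 9 called amino acid transporters had SiC and NT means between the siRNA means, though for Slc3a2 the Si1AK and SiC means were both 5.28. Gpt2 averaged 2.15 ± 0.0938 in Si2AK (SD, n = 3) and -0.45 ± 0.242 in Si1AK (SD, n = 4), against 0.97 in SiC and 0.96 in NT. Of the 17 stress response genes called higher, 10 had SiC between and 7 had it below both, and NT gave 10 and 7. Without SiC replicate 1 the SiC counts were 15 and 2. Of the 21 NF-kB genes called higher, 14 had SiC between and 7 had it below both (15 and 6 without SiC replicate 1), and NT gave 7 and 14. Cxcl2 averaged 2.06 ± 0.215 in Si2AK (SD, n = 3) and -1.43 ± 0.378 in Si1AK (SD, n = 4), against -1.20 in SiC and -1.85 in NT.

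**Figure D5:**
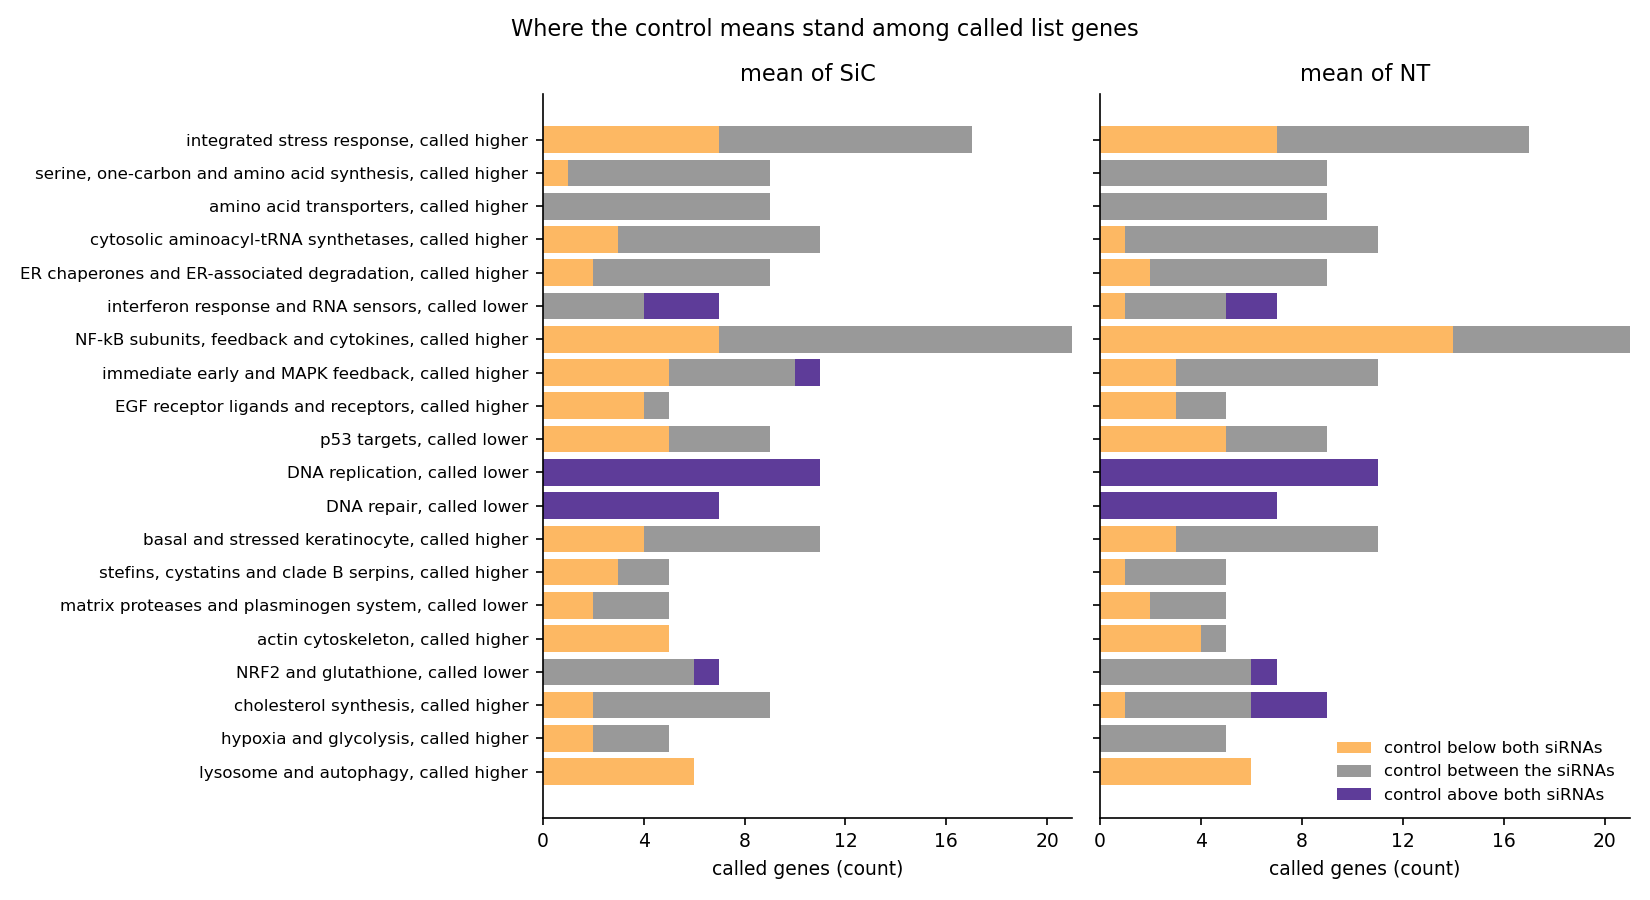
Counts of called genes (x axis) in each gene list with 5 or more calls in one direction (y axis), split by whether the mean of SiC (left) or of NT (right) lay below both siRNA means, between them or above both. Amino acid transporters have all 9 genes between, and DNA replication and repair genes have all 11 and all 7 above both.

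Markers of cell types were measured on the same arrays. Of 10 keratinocyte markers, 9 were well above background on all 7 arrays (all but Cdh1), and their summed signal, in multiples of the array's 75th percentile, was 1040 to 1090 in Si2AK and 840 to 949 in Si1AK. The sums over 10 markers each were 1.58 to 2.18 in Si2AK and 1.08 to 1.57 in Si1AK for fibroblasts, 14.2 to 14.9 in Si2AK and 16.5 to 18.4 in Si1AK for leukocytes, 12.2 to 15.3 in Si2AK and 11.7 to 13.5 in Si1AK for endothelium and 3.92 to 4.3 in Si2AK and 2.29 to 2.57 in Si1AK for melanocytes. Such sums weigh the brightest markers most. As given below, the melanocyte genes Mitf and Mlana differed in opposite directions, and so did the probes of the leukocyte gene Itgam. The leukocyte and melanocyte sums thus give no direction for a cell type. Lum and Postn (fibroblast), Emcn (endothelium) and Tyrp1 (melanocyte) were well above background on none of the 7. Of the tested markers, 1 of 5 fibroblast genes was called higher, 1 of 6 leukocyte and 2 of 8 endothelial genes lower, and 1 of 4 melanocyte genes each way. Of 9 tested keratinocyte markers, 4 were called higher and 0 lower. Among all genes 7.66% were called higher and 6.46% lower. Lists of 4 to 8 tested genes are too short to set such counts apart from those shares. Pdgfra, a fibroblast receptor, rose by 0.94 ± 0.0827 (SE; limma adjusted p = 0.00211), and Cdh5, a cadherin of endothelium, fell by 1.20 ± 0.185 (SE; limma adjusted p = 0.00983). Mitf, a melanocyte transcription factor, rose by 1.05 ± 0.148 (SE; limma adjusted p = 0.00777), and Mlana, a melanosome gene, was at -1.76, with its call lost without any array except Si1AK replicate 4 and Si2AK replicate 2 (-1.84 to -1.45). Flt1, a vessel receptor, was at -0.36, with its call lost without any 1 of the 7 arrays (-0.40 to -0.30). Itgam, an integrin of myeloid cells, was at -0.49 by its brightest probe but 0.78 and 0.97 by its other probes. The part of other cell types in the differences was not tested, and in bulk RNA fewer cells of a type and less RNA per cell cannot be told apart.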

How the data were processed

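RNA (0.2 µg, integrity number 9) was labelled with Cy3, and 600 ng was hybridised to 1-colour Agilent 8x60k arrays, per the labels. Per the file headers, Feature Extraction 10.7.3.1 gave a processed intensity, with background and spatial trend subtracted within the array, and 0 or 1 marks for spots well above background, and probes were placed on mm9. The authors' deposited table of log2 values served as an alternative. The submitters' processing notes name limma and give no version.

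Control and outlier spots were left out, spots of a probe were averaged, and log2 intensity minus the array's 75th percentile was taken. A probe was kept if all arrays of either siRNA marked it well above background (29909 of 55681), and each gene was represented by its brightest probe. Other probes served in 1 alternative. Of all probes, 27741 were named by RefSeq accession (1751 with another symbol than the array gives), and the rest kept the array's name. Of the genes tested, 13444 had a symbol, and 111 lacked 112 single values, whose fit used the arrays left.

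The 3 Si2AK and 4 Si1AK arrays were fitted by lmFit and eBayes of limma 3.58.1 (R 4.3.3), leaving 5 residual degrees of freedom, with Benjamini-Hochberg adjustment over all 21128 genes, and called at 0.05. A bound sets the brighter group's mean against a mean over the dim arrays, in which each array gives the probe's own signal or its dimmest signal that passed the background mark, whichever is larger. The number of arrays limits the precision. The script was tested on simulated data. The groups share replicate numbers, and deviations of same-numbered arrays correlated at -0.04, 0.27 and 0.36. Si2AK replicate 2 correlated at 0.25 with Si1AK replicate 1, and Si2AK replicate 3 at 0.35 with Si1AK replicate 4. Arrays of the same slide were thus nearly as alike, and the correlations cannot decide whether numbers pair samples. The main fit takes samples as unpaired.

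Members, the 34 gene lists and the rules were chosen with earlier results of these data known. Named genes are the 15 largest called differences each way among genes with a symbol and no overlap, up to 4 largest called members of each list (or up to 2 members where none is called), the 3 largest bounds each way, and others said to be chosen after their values were seen, among them the list members given only as a difference. A few items are not reported here. Alternatives changed the samples, slide, replicate block, array weights, variance trend, normalization, background, values, filter and probe choice, and left out each array.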

Additional observations from a re-analysis of the deposited data

Results flagged for a closer look

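Rdh9, a retinol dehydrogenase gene, had 1 array far from the others. Its level was -3.25, -2.96 and 6.11 on Si2AK replicates 1 to 3, against -3.73, -3.39, -3.43 and -3.54 on Si1AK replicates 1 to 4, so Si2AK replicate 3 was far above the 6 other arrays. It is the lone Si2AK array of slide 2, so this array and the slide cannot be told apart. The difference on slide 2 minus that on slide 1 was 9.13 (siRNA by slide interaction, limma adjusted p = 0.0307), and it was the one gene called of 21122, which is 0.00473%, while 291 had an unadjusted p below 0.05. Without Si2AK replicate 2 the interaction was 9.28 (limma adjusted p = 0.0117). The overall difference of 3.49 was not called.

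Among 146 named genes, 1 of the 4 Si1AK arrays stood apart from the others, by Dixon's test, in 11 cases. Chance alone sets about 1 in 20 groups apart, so many of these cases can be chance. Slc22a3 was at -5.67 on Si1AK replicate 1, against -8.10 to -7.97 on the others, all short of the background mark. Mx1 at -2.61 on replicate 1 (others -2.31 to -2.30), Tipin at 4.09 on replicate 2 (others 4.31 to 4.35), Gadd45a at 0.96 on replicate 3 (others 1.29 to 1.35), Krt6b at 1.98 on replicate 3 (others 2.44 to 2.48), Rfng at 3.84 on replicate 3 (others 4.0 to 4.03) and Dna2 at -0.53 on replicate 4 (others -0.23 to -0.20) had 1 low Si1AK array. Maml1 at 3.06 on replicate 2 (others 2.80 to 2.83), Snai2 at 3.83 on replicate 4 (others 3.43 to 3.49), Rbpj at 2.03 on replicate 4 (others 1.87 to 1.90) and Rplp0 at 8.63 on replicate 4 (others 8.31 to 8.36) had 1 high one. Groups of 3 arrays, such as Si2AK, were not tested in this way.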

How the results depend on the processing

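The 2983 calls (1618 higher, 1365 lower) stayed within 1.5 times under 10 other settings that kept all arrays or slides, from 2687 with all 14 arrays in the fit to 3669 with a variance trend. Without a filter on dim probes, 1010 of 34942 genes were called (494 higher, 516 lower). Leaving out 1 array gave 1401 to 3014 calls, 692 to 1435 higher and 709 to 1579 lower, all with fewer arrays. Slide 1 alone gave 0 calls, and slide 2 alone 1 higher and 0 lower. The siRNA by slide interaction gave 1 gene, also without Si2AK replicate 2. With the replicate number of replicates 1 to 3 as a block, 0 genes were called (0 higher, 0 lower; 5471 at an unadjusted p below 0.05), against 2014 without that block (1070 higher, 944 lower). Whether those numbers pair samples could not be decided, and the block leaves fewer degrees of freedom. Si2AK replicate 1 correlated best with Si1AK replicate 3, and Si2AK replicates 2 and 3 with their own numbers, by small margins. With slide as a block and without Si2AK replicate 2, a fit chosen after seeing the data like the fit of replicates 1 to 3 without the block, 4533 were called, 2224 higher and 2309 lower.

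Of 141 named genes called, 130 were also called without Si2AK replicate 2 and 98 without each array in turn. Cenpf, not called at 0.31, was 0.00 with array weights (p = 0.997 after adjustment in limma), -0.51 with quantile normalization, -0.11 with normexp, -0.15 in the authors' deposited table and -0.01 with slide as a block and without Si2AK replicate 2. Leaving out 1 array gave -0.01 to 0.67 for it. Itgam, at -0.49, was 0.42 when its probes were averaged. Of the 34 list medians, 32 had the same sign on both slides, 28 kept it without Si2AK replicate 2 and 26 under all 4 other scalings. The causes were not tested.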
